A study of Mus musculus with 5 samples.

Results

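The potassium channel genes of the mouse central amygdala (CeA) were taken as all genes whose symbol starts with Kcn, which gave 94 of the 22532 features counted. Nuclei of the CeA had been sequenced in 5 droplet libraries, each made from CeA tissue of 1 male and 1 female mouse combined. The labels give C57BL6 for all of them. Fed replicates 1 and 2 came from ad libitum fed mice of 8 weeks. Fed replicate 3 came from fed Htr2a-Cre mice of 12 weeks, whose CeA had received a Cre-dependent mCherry virus. Fasted replicates 1 and 2 came from mice of 8 weeks without food for 20 and 21 hours. The comparisons address which channel genes differ between the cells of the CeA, and which differ between fed and fasted mice. Pooling leaves the library, not the mouse, as the replicate, and the virus and the Cre allele cannot be told apart from the age and the preparation of fed replicate 3.

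Of 23839 barcodes, 7161 nuclei had 500 to 8000 genes and a mitochondrial share of unique molecular identifiers (UMIs, one per captured RNA molecule) below 0.8%. They numbered 1130 to 1734 per library, with median UMIs of 6608 to 16367. The median mitochondrial share was 0.317% and 0.237% in the fasted libraries and 0.0529% to 0.136% in the fed ones. Nuclei with at least 2 UMIs of Gad1 and Gad2, the enzymes of GABA synthesis, and no glial marker set made up 69.5% (4977 nuclei), and are called all inhibitory nuclei. They were sorted by the UMIs of marker genes into 10 inhibitory gates named by their leading marker: Rarb (576 nuclei), Prkcd (298), Calcrl (285), Dnah5 (270), Sst (209), Foxp2 (199), Nkx2-1 (162, Nkx2-1 or Lhx6 together with Sox6), Pde1c (113, with Rarb), Tac1 (57) and Vdr (47). A further 2153 inhibitory nuclei met no gate. Gates are not cell types, and no Kcn gene was used in them. Among nuclei with at most 1 UMI of Gad1 and Gad2, 446 met the markers of astrocytes, 152 of oligodendrocytes, 76 of oligodendrocyte precursor cells (OPC) and 78 of microglia. The 54 excitatory and 9 endothelial nuclei were too few to test. The 715 nuclei in more than 1 gate or class, 9.98%, were left out of the gates and classes, and this was the only treatment of doublets. Those in more than 1 inhibitory gate without a glial marker set stayed in all inhibitory nuclei. The largest overlaps were Calcrl with Rarb (165 nuclei), Rarb with Foxp2 (137), Prkcd with Dnah5 (110) and Calcrl with Dnah5 (82). These overlaps count nuclei that met both gates, not all nuclei with both markers. The overlap was 0 nuclei for Prkcd with Calcrl and for Dnah5 with Sst. Yet Prkcd was at 243 ± 59.2 CPM (defined below) in the Calcrl gate, and Sst at 103 ± 34.6 CPM in the Dnah5 gate. Nuclei of these gates could thus carry the other marker without being left out. Doublets and nuclei that express both markers were not told apart, so the gates describe the nuclei that remained. Pairs of libraries shared at most 22 barcodes, and at most 1 of the kept nuclei.

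Potassium channels let potassium leave a cell and so set its resting potential, shorten its action potentials and pace its firing. Voltage-gated (Kv) channels open on depolarization, the calcium-activated and sodium-activated channels respond to the ions that enter during activity, inward rectifiers (Kir) hold the membrane near the potassium potential, and two-pore channels carry leak. Auxiliary subunits form no pore but change the gating or the surface level of a pore subunit. In glia, Kir channels take up the potassium that active neurons release.

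What the pore-forming members share is the selectivity filter, a stretch of 5 codons in the pore loop. The letters ACNNTNGGNTNNGGN, TCNNTNGGNTNNGGN and AGNNTNGGNTNNGGN were searched in frame, on the coding strand, in 1 canonical coding sequence per gene of the GENCODE annotation of GRCm39. At least one of these patterns was present in 75 of the 94 members (79.8%) and in 454 of 21397 protein-coding genes (2.12%). Of the 77 pore-forming members 75 had a match, and the exceptions were Kcnk1 and Kcnk7. All 16 auxiliary members (Kcnab, Kcne, Kcnip and Kcnmb) and Kcnrg, a regulator without a pore, had none. A second match was found in 10 members, all of them two-pore genes (Kcnk). The filters below belong to some of the members whose levels differed most between classes or feeding states, or that led their family. Capitals mark the 5 codons, and the lower-case letters the flanking coding bases.

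Kcnb2: atgaccACTGTGGGCTACGGTgacatt
Kcnc2: atgactACCTTAGGTTACGGGgatatg
Kcnh5: cttacaACCATAGGATTTGGAaacata
Kcnh7: ctaaccAGTGTAGGATTTGGAaatgtg
Kcnma1: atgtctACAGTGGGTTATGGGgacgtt
Kcnt1: ttctcaACTGTGGGCTTCGGTgatgtg
Kcnt2: ttttctACTGTGGGCTTTGGGgatgtc
Kcnj6: gaaaccACCATCGGTTATGGCtaccgg
Kcnj10: cagaccACCATCGGCTATGGCttccgc

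These stretches lie, in the same order and each within a single coding exon of GRCm39, at chr1:15780264-15780290 (plus strand), chr10:112292128-112292154 (plus), chr12:75134234-75134260 (minus), chr2:62607681-62607707 (minus), chr14:23578475-23578501 (minus), chr2:25784373-25784399 (plus), chr1:140353010-140353036 (plus), chr16:94633630-94633656 (minus) and chr1:172196863-172196889 (plus).

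In all inhibitory nuclei together, the 94 members held 1.93% to 2.06% of the UMIs of each library. Levels are given as CPM, counts per 1000000 UMIs of that class in that library, as the mean ± SD of the libraries. The UMIs were concentrated in few members, since the 10 highest held 82.7% of them. Kcnip4, which encodes a Kv channel-interacting protein (KChIP) that binds Kv4 subunits, alone held 36.3%, at 7169, 7535 and 6620 CPM in fed replicates 1, 2 and 3 and 6987 and 7518 CPM in fasted replicates 1 and 2. It was followed on this scale by its pore partner Kcnd2 (Kv4.2, 2678 ± 362 CPM), Kcnq5 (Kv7.5, 1851 ± 105), Kcnma1 (the BK channel, 1110 ± 47.3), Kcnq3 (Kv7.3, 827 ± 56.2), Kcnb2 (Kv2.2, 654 ± 37.9), the Kv1 beta subunit Kcnab1 (612 ± 27.2), Kcnh7 (ERG3, 559 ± 68.0), Kcnd3 (Kv4.3, 481 ± 38.7) and Kcnc2 (Kv3.2, 397 ± 63.8). By family, the auxiliary subunits held 42.5% ± 1.03 of the member UMIs, Kv4 16.0% ± 1.42, Kv7 15.2% ± 0.739 and the calcium-activated and sodium-activated channels 9.12% ± 0.533. The Kir genes held 2.11% ± 0.169, the two-pore genes 1.48% ± 0.144 and Kv1 0.575% ± 0.0446. At the low end 26 members were under 1 CPM, and 4 (Kcnk15, Kcna7, Kcnk16 and Kcne1) had no UMI in any inhibitory nucleus.

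CPM does not compare genes of different length when intronic reads are counted. Of the 10 highest members by CPM, 9 are longer than 200 kb, against a median of 32.6 kb over the members, and CPM and gene length had a Spearman rho of 0.756 across the 94 members, which share the same libraries. Per kb of gene, the order was different. Kcnip2, the KChIP2 gene of 24.6 kb, was highest at 7.92 ± 1.29 CPM per kb. Kcnip4 was at 6.31 ± 0.339 and Kcnd2 at 5.20 ± 0.703 on this scale. The ranges of mean ± SD of Kcnip2 and Kcnip4 overlapped, and those of Kcnip4 and Kcnd2 did not. Short genes moved up. Kcna1 (Kv1.1, 5.99 kb) stood at rank 40 by CPM (24.6 ± 5.80) and at rank 6 per kb (4.10 ± 0.969 CPM per kb).

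**Figure D1:**
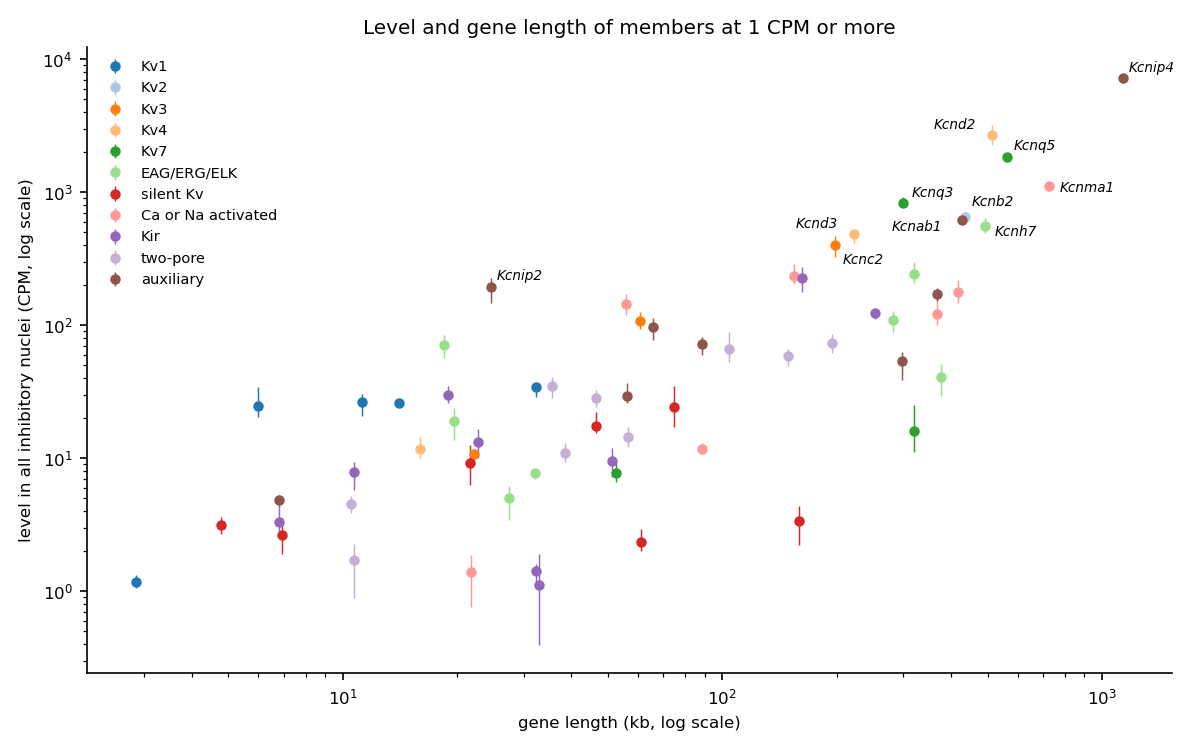
Mean level in all inhibitory nuclei (CPM, log scale) against gene length (kb, log scale) for members at 1 CPM or more, without those not reported here. Points are means of 5 libraries, bars run from the lowest to the highest library, and colours mark families. The longest gene, Kcnip4, has the highest level, and Kcnip2 stands high for its length.

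Between the inhibitory gates, 56 members had enough counts to be tested, each gate against the mean log level of the other gates with the library as a block (edgeR quasi-likelihood test, Benjamini-Hochberg adjustment over all 10300 genes tested). The other 38 members reached at most 19.8 CPM in any gate. Of the 56, 50 (89.3%) differed in at least 1 gate and 54.7% of all genes did, and a member was called in a median of 3 gates, against 1 for all genes. The members that passed the filter on low counts are not a sample of all members, so these shares are a description. The numbers called, with the share of all tested genes called in the same gate, were 24 in the Calcrl gate (11 higher, 13 lower, all genes 16%), 21 in Dnah5 (9 and 12, all genes 14.8%), 23 in Foxp2 (16 and 7, all genes 14%), 33 in Nkx2-1 (15 and 18, all genes 31%), 28 in Pde1c (15 and 13, all genes 15.9%), 33 in Prkcd (13 and 20, all genes 25.9%), 20 in Rarb (15 and 5, all genes 13.1%), 16 in Sst (13 and 3, all genes 5.5%), 14 in Tac1 (10 and 4, all genes 5.9%) and 12 in Vdr (8 and 4, all genes 7.04%). The share of members was above that of all genes in each gate. The 6 members that differed in no gate were Kcnma1, Kcnd1, Kcnq1, Kcnj10, Kcnk6 and Kcnrg. Kcnma1 had the flattest level of the higher members, from 955 ± 61.7 CPM in the Tac1 gate to 1272 ± 83.4 in the Calcrl gate, whereas Kcnmb2 ranged from 3.35 CPM in Pde1c to 582 in Nkx2-1. Tac1 and Vdr had at least 10 nuclei in only 3 libraries, and their values rest on those.

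**Figure D2:**
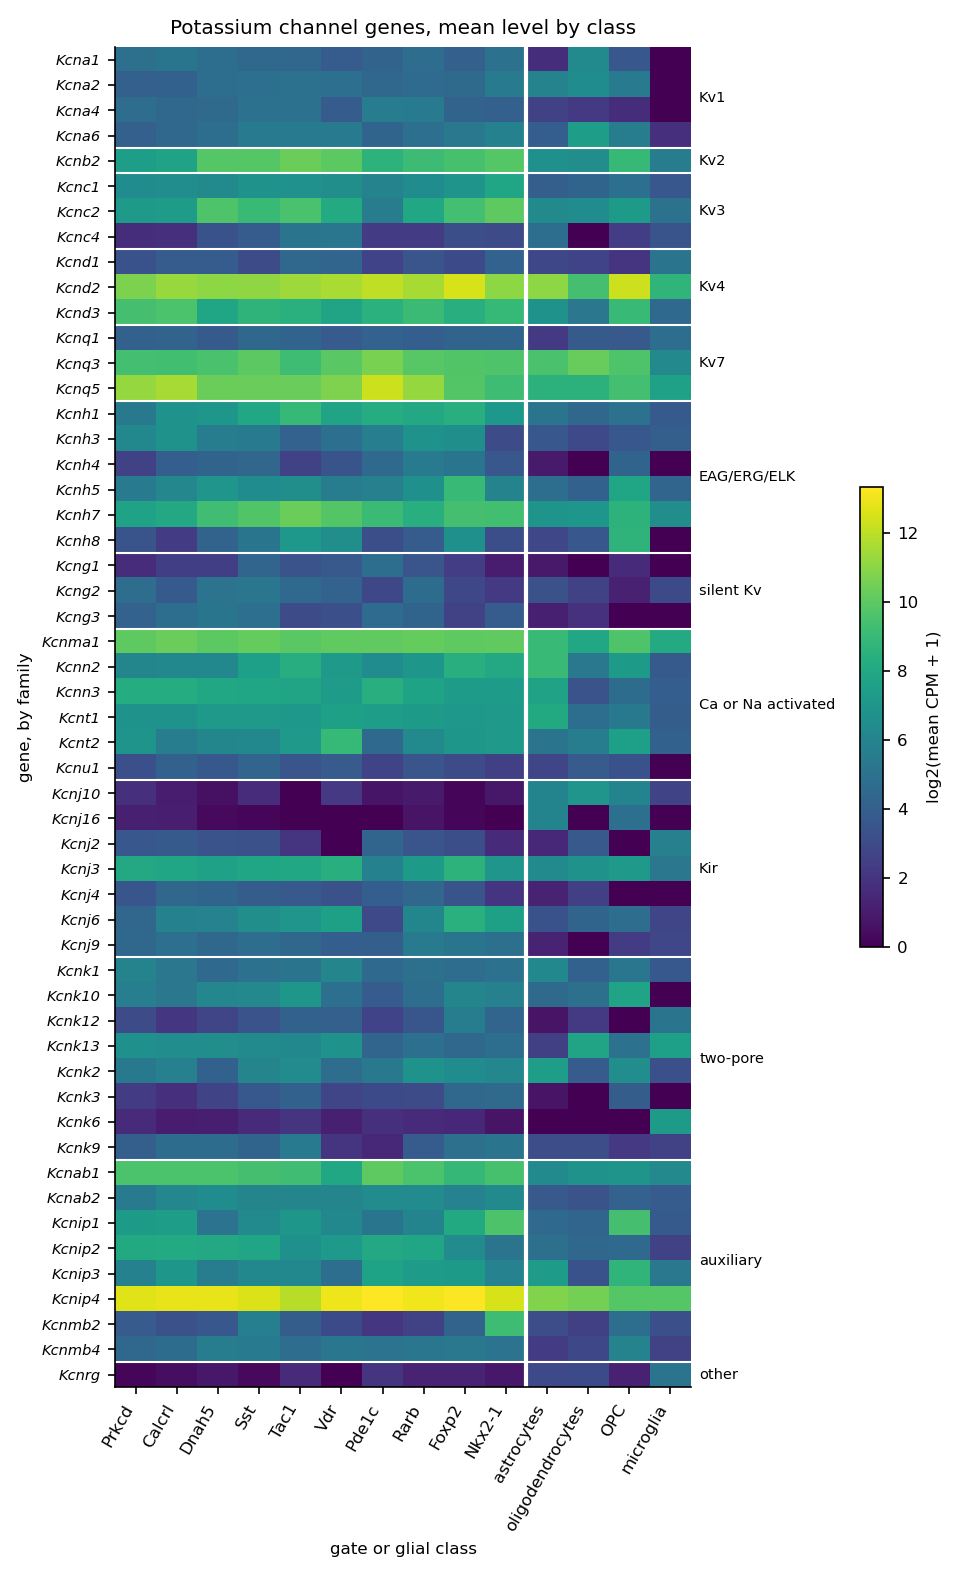
Mean level, as log2(mean CPM + 1), of the tested members (by family, without those not reported here) in the 10 inhibitory gates and 4 glial classes. Kcnip4, Kcnd2 and Kcnma1 are high in all gates, Kcnmb2 is high in the Nkx2-1 gate, and Kcnj10, Kcnj16 and Kcnk6 stand out in glia.

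The Nkx2-1 gate, of nuclei with the interneuron genes Nkx2-1 or Lhx6 and Sox6, had the largest rise of any member between gates. Kcnmb2, the BK beta2 subunit that makes the channel inactivate (chromosome 3, 31956656 to 32254329), was at 606, 409 and 509 CPM in fed replicates 1, 2 and 3 and 833 and 556 in the fasted ones. The mean of the other gates in the same libraries was 15.7 ± 4.60 CPM, so that all 5 libraries stood far above it, with a log2 difference of 5.47 ± 0.19 (SE, adjusted p = 4.01e-39). The BK pore gene Kcnma1 was at 1094 CPM in this gate and 1096 in the others, and was not called. The KChIP1 gene Kcnip1 was at 896, 757, 881, 747 and 619 CPM in the same order of libraries and differed by 3.04 ± 0.13 (adjusted p = 1.19e-34). The genes Kcnc2 and Kcnc1 of Kv3 channels, which repolarize fast-firing neurons, were higher as well. Kcnc2 rose to 1033 ± 192 CPM (1.79 ± 0.13, adjusted p = 7.81e-21) and Kcnc1 (Kv3.1) by 1.26 on the log2 scale. Kcnh3 (ELK2) was lowest here, at 7.51 ± 6.12 CPM against 70.2 ± 11.8, a log2 difference of -3.04 ± 0.29 (adjusted p = 7.67e-15). Kcnip2 fell by 2.43 and Kcnq5 by 1.67.

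The Foxp2 gate had the highest levels of both the EAG channel Kcnh5 and the G protein-gated rectifier (GIRK) Kcnj6. Kcnh5 (EAG2) was at 437, 715 and 482 CPM in fed and 455 and 432 in fasted replicates, against 77.9 ± 15.8 in the other gates (2.86 ± 0.13, adjusted p = 1.33e-31). Kcnj6 (GIRK2) was at 317, 378, 357, 383 and 330 CPM, against 83.1 ± 11.5 (2.38 ± 0.15, adjusted p = 6.58e-23). Both genes were above every library of the other gates in 5 of 5 libraries. Kcnh8, of the related ELK channels, was at 83.7, 88.6, 79.6, 156 and 103 CPM, also above the 27.7 ± 13.1 of the other gates (2.24 ± 0.23, adjusted p = 6.14e-13). GIRK channels open on stimulation of Gi/o-coupled receptors, and are usually assembled from GIRK1 with GIRK2 or GIRK3. The GIRK1 gene Kcnj3 was also higher in this gate (395 ± 168 CPM, log2 difference 1.18), as was the GIRK3 gene Kcnj9 (35.6 CPM, 0.67). Kcnd2 reached its highest level here, 5917 ± 1498 CPM (1.203), with Kcnip4 (0.48) and Kcnip1 (1.29) higher too. The silent subunit Kcng3 was lower, at 4.92 ± 4.46 CPM on 13 UMIs (-1.81 ± 0.43, adjusted p = 0.00123).

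**Figure D3:**
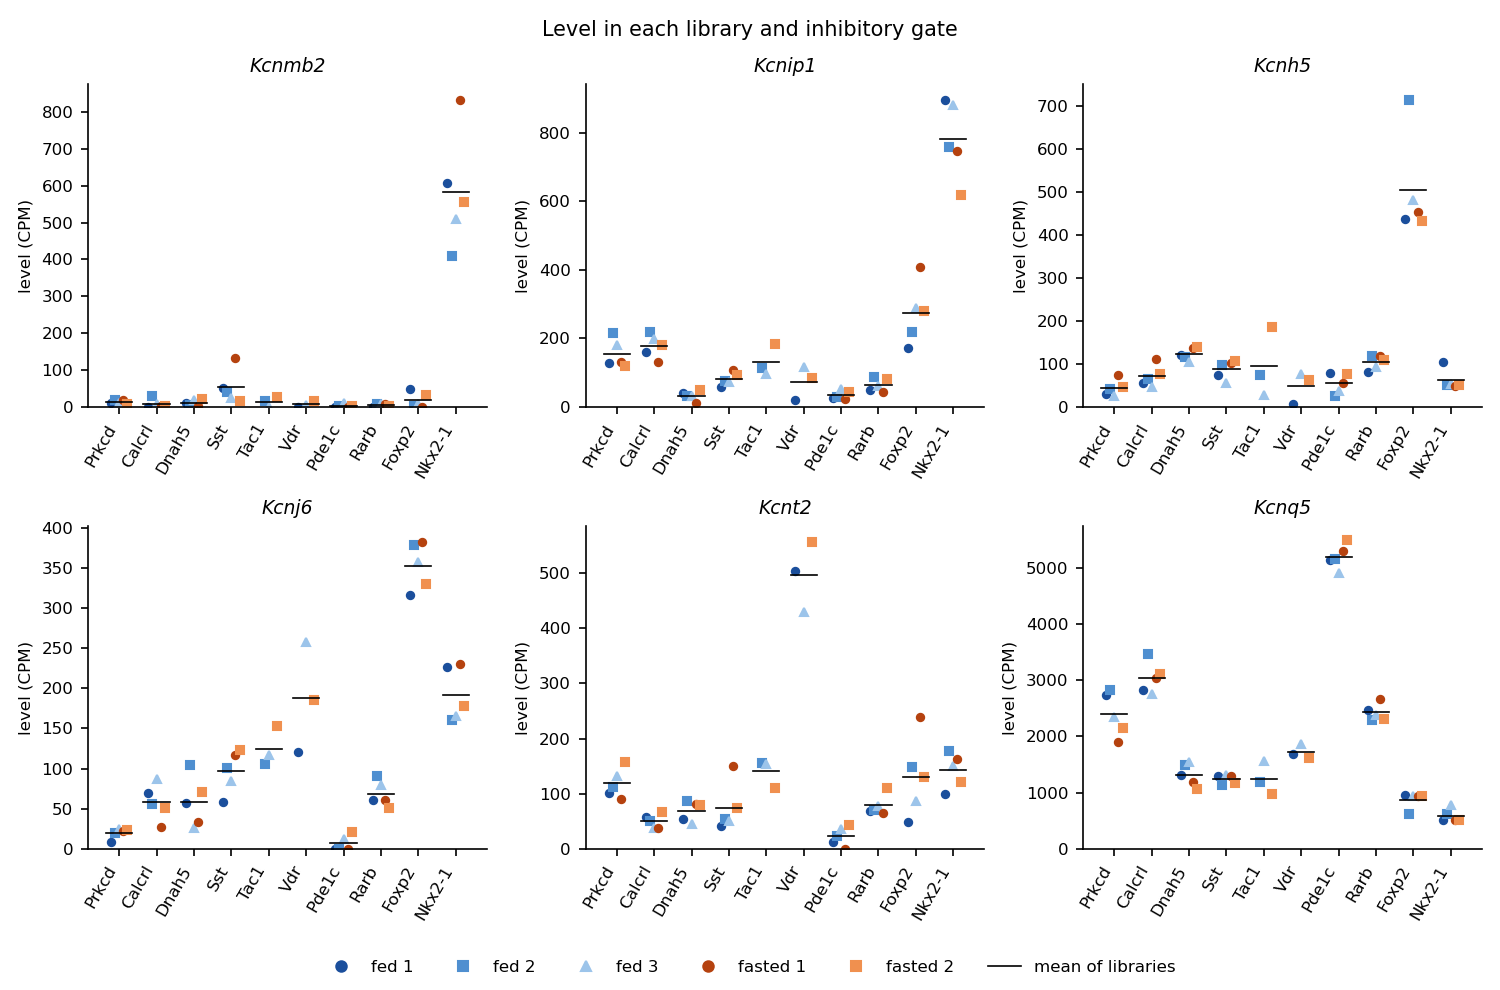
Level (CPM) of 6 members in each library and inhibitory gate. Points are libraries, lines the mean of the libraries; Tac1 and Vdr have 3 libraries. All libraries of the Nkx2-1 gate lie above those of every other gate for Kcnmb2 and Kcnip1, and the same holds for Foxp2 with Kcnh5 and Kcnj6, Vdr with Kcnt2 and Pde1c with Kcnq5.

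The GIRK genes Kcnj6 and Kcnj3 were lowest in the Pde1c gate. Kcnj6 had no UMI in fed replicates 1 and 2 and fasted replicate 1, and was at 12.7 and 21.1 CPM in fed replicate 3 and fasted replicate 2, with 19 UMIs in all (log2 difference -2.91 ± 0.37, adjusted p = 1.19e-09). Kcnj3 was at 56.6 ± 25.5 CPM (-1.81). Kcnj9 was at 15.4 ± 5.55 CPM and was not called (-0.45 ± 0.30, adjusted p = 0.377). The Kv7 genes Kcnq5 and Kcnq3, of channels that carry the slow M-current, were higher and had their highest levels of the 10 gates here. Kcnq5 was at 5129, 5148, 4905, 5298 and 5485 CPM, each above all libraries of the other gates, whose mean was 1664 ± 79.0 (1.94 ± 0.11, adjusted p = 1.62e-24). Kcnq3 (1626 ± 263 CPM) rose by 1.15 on the log2 scale. The silent subunit Kcng1 was higher on 42 UMIs (26.8 ± 8.40 CPM, 2.30 ± 0.38, adjusted p = 1.88e-06), and the KChIP3 gene Kcnip3 was at 210.3 ± 38.5 CPM (1.61 ± 0.16, adjusted p = 1.73e-13). Kcnc2 was at its lowest, 47.1 CPM (-2.55).

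The Prkcd gate was marked by falls. Protein kinase C delta neurons of the lateral CeA are known for curbing food intake. Kcnh1 (EAG1) was at 23.6, 27.9 and 41.5 CPM in fed and 51.6 and 58.8 in fasted replicates, against 241 ± 29.0 in the other gates. No library overlapped with that mean, and the log2 difference was -2.50 ± 0.18 (adjusted p = 1.14e-20). Of the 6 tested EAG, ERG and ELK genes, 5 were lower in this gate, including Kcnh7 (201 ± 43.6 CPM, -1.61), and Kcnh3 was higher (0.70). Kcnb2 (174 ± 106 CPM, -1.98), Kcnj6 (19.8 CPM, -2.17) and Kcnn2 (69.2 ± 19.7 CPM, -1.13), the SK2 channel of the afterhyperpolarization, were also lower. Kcnd2 had its lowest level (1643 ± 193 CPM, -0.87), whereas Kcnd3 was higher (0.76). No rise in this gate met the rule for naming, and Kcnk13 (102 CPM, 0.81) was among those called.

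The Calcrl gate also had little Kcnb2 (206 ± 37.9 CPM, -1.68), and Kcnh3 was its largest called rise. That gene was at 107, 118 and 110.1 CPM in fed and 128 and 94.1 in fasted replicates, against 57.4 ± 10.4, higher in 5 of 5 libraries (1.40 ± 0.14, adjusted p = 2.31e-13). Kcnh8 (ELK1) had only 16 UMIs here, or 3.91 ± 3.79 CPM against 40.04 ± 10.7 (-3.02 ± 0.41, adjusted p = 1.23e-08). The Kv4.3 gene Kcnd3 (763 ± 67.6 CPM) and Kcnip2 (279 ± 44.6 CPM), whose products assemble in channels of the A-type current, were at their highest, with log2 differences of 1.00 and 0.84.

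In the Rarb gate 2 ELK genes led. Kcnh4 (ELK3) was at 55.0, 40.5 and 54.6 CPM in fed and 46.8 and 27.1 in fasted replicates, against 16.8 ± 2.61 (1.75 ± 0.18, adjusted p = 8.13e-13), and Kcnh3 was at 114 ± 23.5 against 57.1 ± 8.67 (1.48 ± 0.13, adjusted p = 1.43e-15). The mechanically gated leak channel TREK1, Kcnk2, was at 111 ± 19.9 CPM (1.21 ± 0.14, adjusted p = 6.18e-11). All 3 were higher in 5 of 5 libraries. Kcnmb2 was lower (5.15 ± 3.78 CPM, -1.83 ± 0.43, adjusted p = 0.000934). The compared mean of that gene, 87.9 CPM, is carried by the Nkx2-1 gate. The log2 difference uses the mean of the log levels and is therefore smaller than the ratio of the means.

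In the Dnah5 gate, Kcnc2 was at 658, 874 and 530 CPM in fed and 1011 and 1015 in fasted replicates (1.39 ± 0.13, adjusted p = 1.27e-14). Silent subunits, which conduct only in complexes with Kv2, were higher with their partner. Kcng2 (32.3 ± 8.28 CPM, 1.22 ± 0.23, adjusted p = 2.44e-05), Kcng3 (34.7 ± 13.3 CPM, 1.14 ± 0.23, adjusted p = 0.000102) and Kcnb2 (889 CPM, 0.65) all rose. Kcnip1 was lowest of all gates, at 33.2 ± 14.4 CPM against 207 ± 17.9 (-1.92 ± 0.20, adjusted p = 2.80e-12). In the Sst gate Kcng2 also led, with 40.5, 23.4 and 28.3 CPM in fed and 56.9 and 32.2 in fasted replicates (1.26 ± 0.25, adjusted p = 0.000140). Its Kcnb2 (897 CPM) rose by 0.65 and its Kcnh7 (837 CPM) by 0.69.

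The smaller Tac1 and Vdr gates shared high Kcnh8 and Kcnc4, although the sharing was not tested. Neither gene was particular to them, since Kcnh8 was called higher in 4 gates and Kcnc4 in 3. Foxp2, at 102 CPM of Kcnh8, stood above the 94.8 CPM of Vdr. In Tac1, Kcnh8 was at 180.5, 72.1 and 153 CPM in fed replicates 2 and 3 and fasted replicate 2, against 31.4 CPM in the other gates (2.80 ± 0.29, adjusted p = 5.09e-12). Kcnc4 (Kv3.4) was at 34.3 ± 7.37 CPM on 34 UMIs (2.41 ± 0.39, adjusted p = 5.57e-06) and the acid-sensitive leak channel TASK3, Kcnk9, at 44.5 ± 12.1 CPM (1.65 ± 0.38, adjusted p = 0.00232). Kcnh1, Kcnh7, Kcnb2 and Kcnk10 also had their highest levels of the 10 gates here. Kcnip4 was lower (3773 CPM, -1.16), as was Kcnh3 (17.5 ± 9.38 CPM, -1.46 ± 0.36, adjusted p = 0.00420). In Vdr, the sodium-activated channel Kcnt2 (Slick) led. It was at 505, 429 and 557 CPM in fed replicates 1 and 3 and fasted replicate 2, against 81.7 ± 19.7 (2.61 ± 0.19, adjusted p = 2.07e-19). Its relative Kcnt1 (Slack) was also at its highest of the gates in Vdr, but was not called there. Over the gates Kcnt1 ranged only from 111 CPM in Prkcd to 191 CPM in Vdr. Kcnc4 was higher on 22 UMIs (2.27 ± 0.46, adjusted p = 0.000239) and Kcnh8 on 55 (2.18 ± 0.39, adjusted p = 2.47e-05), while Kcnip3 was lower (27.6 ± 16.8 CPM, -1.61 ± 0.37, adjusted p = 0.00170).

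Some subunits that assemble in one channel followed each other over the 10 gates and others did not. These correlations are over gate means that share libraries and carry no test. Kcnd2 had a Spearman rho of 0.697 with Kcnip4 and 0.588 with Kcnip3, but -0.0788 with Kcnip1 and -0.273 with Kcnip2. Kcnc1 and Kcnc2 had a rho of 0.612, Kcnj3 and Kcnj6 of 0.430, and Kcnma1 had -0.200 with Kcnmb2 and -0.103 with its neuronal beta4 subunit gene Kcnmb4. Kcnj3 had -0.115 with Kcnj9, and Kcnq3 had 0.103 with Kcnq5. Kcnb2 was highest in the Tac1 gate (1274 CPM). The Kv1 beta subunit Kcnab1 ranged from 253 CPM in Vdr to 1041 in Pde1c and the SK3 gene Kcnn3 from 159 in Vdr to 331 in Pde1c, each a mean over libraries. By CPM the axonal Kv1 genes were low in every gate, with Kcna1 between 13.6 and 35.2 CPM and Kcna2 between 16.0 and 43.3 CPM. Both genes are short, and per kb they stood at ranks 6 and 15 of the 94 members in all inhibitory nuclei. The ATP-sensitive (KATP) pore genes, which couple the membrane to metabolism, were low by CPM. Kcnj11 was at 3.32 ± 0.648 CPM and Kcnj8 had 1 UMI in all inhibitory nuclei, and both stayed under the filter on low counts. Kcnj11 is also short (6.81 kb). Per kb it stood at rank 38, at 0.487 ± 0.0952 CPM per kb, beside Kcnj6 at 0.485 ± 0.0275. Kcnj8 stood at rank 84 per kb.

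Partners without a Kcn symbol were read from a list of 20 genes. Of these, 12 were tested between gates, and 1 to 7 of them were called per gate. Dpp10, which like Dpp6 speeds Kv4 channels, was higher in the Foxp2 and Nkx2-1 gates and lower in Prkcd and Rarb. Dpp6 was higher in Dnah5, Foxp2 and Sst and lower in Vdr. Cntnap2, which clusters Kv1 channels on axons, was higher in Nkx2-1 and Pde1c and lower in Dnah5, Foxp2 and Sst. Over the gates Kcnd2 had a rho of -0.539 with Dpp6 and 0.345 with Dpp10.

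Glial classes differed from the inhibitory gates in most members, mainly by lower levels. Of the 56 tested members, 48 were called in astrocytes (10 higher and 38 lower, all genes 57.4%), 44 in oligodendrocytes (7 and 37, all genes 42.5%), 30 in OPC (9 and 21, all genes 34%) and 46 in microglia (4 and 42, all genes 58.1%). The median log2 difference of the members was -1.83, -2.34, -0.58 and -3.40 in this order, against 0.11, -0.11, -0.13 and -0.22 for all genes. With DESeq2, which has other size factors, spread estimates and tests, the medians of all genes became 0.11, 0.07, 0.08 and 0.32. The higher calls among all genes went from 47.3% to 62.2% in microglia, from 47.1% to 58.7% in OPC and, between gates, from 54.8% to 64.9% in Vdr. With RLE size factors in edgeR, where only the scaling changed, the medians were 0.090, -0.034, -0.0072 and 0.21. The higher calls were then 60.5% in microglia, 55.2% in OPC and 61.4% in Vdr. RNA free in the droplets can give neuronal members UMIs in every class. The 20 highest members reached a median of 7.62% of their inhibitory level in microglia, 20.9% in astrocytes, 20.8% in oligodendrocytes and 46.4% in OPC. Its part in the lower levels was not tested.

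Kir channels carried the largest rises in astrocytes, oligodendrocytes and OPC. Kcnj10 (Kir4.1, chromosome 1, 172168765 to 172201652), the main channel of glial potassium uptake, was at 95.1, 81.3 and 43.9 CPM in astrocytes of fed and 47.0 and 47.6 of fasted replicates. In oligodendrocytes it was at 132, 144, 139, 96.1 and 103 CPM, and in OPC at 19.7, 24.5, 128, 109 and 33.0 CPM. In the gates it averaged 1.2 ± 0.895 CPM, below all glial libraries of these classes, with log2 differences of 5.59 ± 0.36 (adjusted p = 1.03e-23), 6.47 ± 0.42 (adjusted p = 2.31e-23) and 5.54 ± 0.53 (adjusted p = 1.35e-14). Its partner Kcnj16 (Kir5.1) was at 64.2 ± 26.7 CPM in astrocytes (6.87 ± 0.38, adjusted p = 4.82e-24) and had no UMI in oligodendrocytes. In microglia the rectifier was Kcnj2 (Kir2.1), at 61.6, 55.0, 49.8 and 50.1 CPM on 16 UMIs in the 4 libraries with enough nuclei (2.85 ± 0.54, adjusted p = 5.68e-06). The GIRK3 gene Kcnj9 was the largest fall among members at 20 CPM or more in the gates, in astrocytes and in oligodendrocytes. It had 3 UMIs in astrocytes, 14.9-fold lower than in the gates (exact Poisson interval of the count 5.09 to 72.2), and none of 534032 in oligodendrocytes, which with a floor of 3 counts over the class is at least 4.67-fold lower than the 26.2 CPM of the gates.

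**Figure D4:**
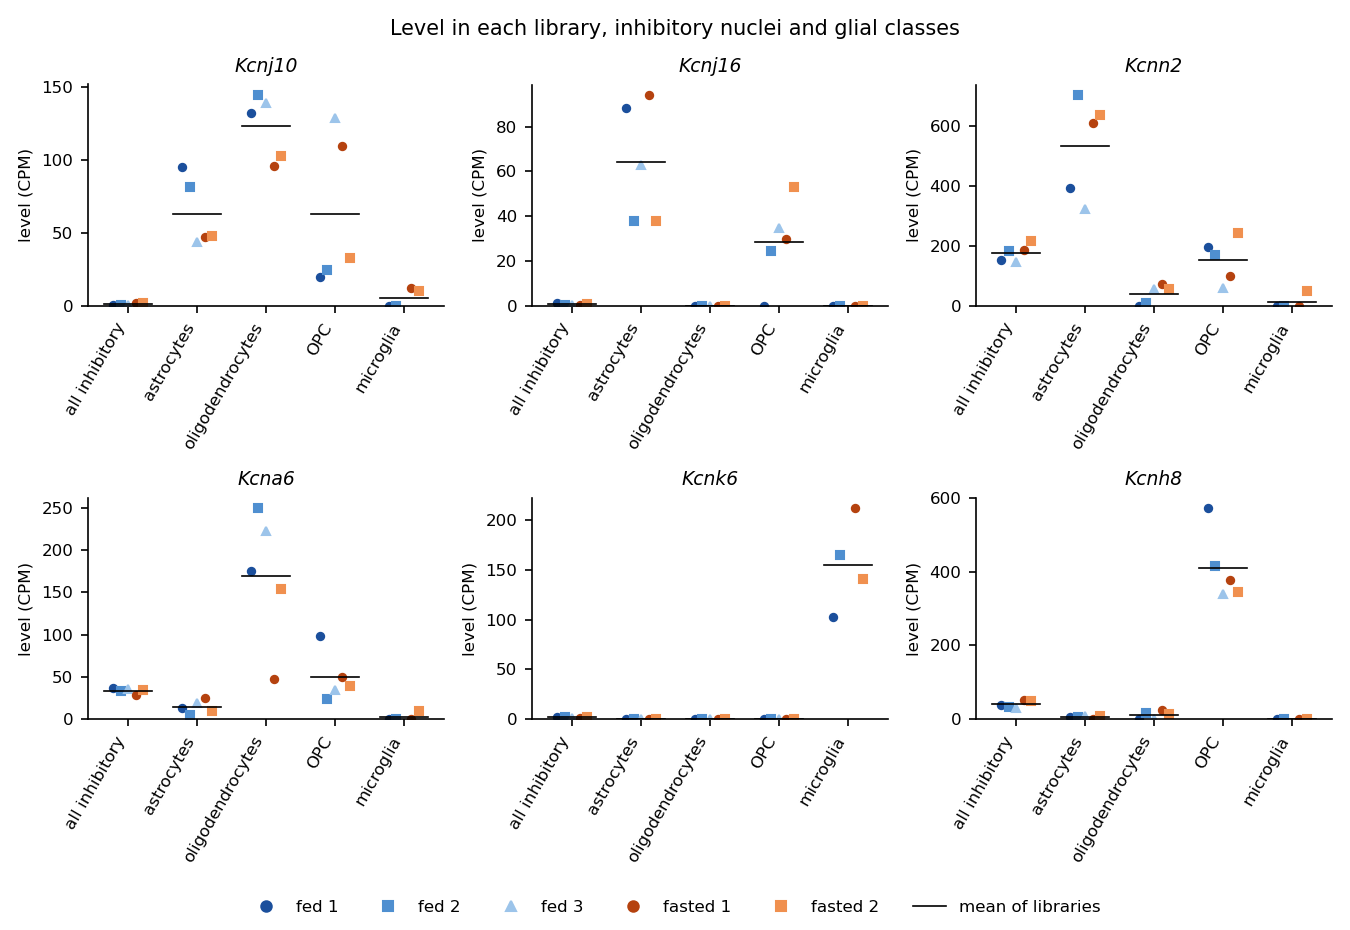
Level (CPM) of 6 members in all inhibitory nuclei and 4 glial classes. Points are libraries, lines the mean of the libraries; microglia have 4 libraries. Kcnj10 is near 0 in inhibitory nuclei and above 19 CPM in astrocytes, oligodendrocytes and OPC, Kcnk6 has UMIs in every microglial library, and Kcnh8 is highest in OPC.

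Two-pore and Kv genes set the glial classes apart from each other, although the classes were tested only against the gates. Kcnk6 (TWIK2), known as a potassium exit path of macrophages, was at 103, 165, 212 and 140 CPM in microglia and at 1.78 ± 0.944 in the gates (6.04 ± 0.42, adjusted p = 2.26e-20), and had no UMI in the other 3 glial classes. Kcnrg was at 34.1 ± 21.5 CPM in microglia on 9 UMIs (4.55 ± 0.77, adjusted p = 4.13e-07). Kcnk13 (THIK1), which controls microglial surveillance, was at 186 ± 37.0 CPM in microglia, a log2 difference of 1.22. It was at 219 CPM in oligodendrocytes (1.72) and at 4.77 in astrocytes (-3.23). Kcnk10 (TREK2) had no UMI of 301597 in microglia, at least 5.24-fold below the 52.2 CPM of the gates by the same floor. Of the 4 tested Kv1 genes, 3 were higher in oligodendrocytes and Kcna4 was lower (3.89 ± 6.09 CPM against 27.6, log2 difference -2.84, adjusted p = 0.00153). Kcna6 (Kv1.6) was at 176, 249.7, 223, 48.0 and 154 CPM (2.41 ± 0.21, adjusted p = 5.21e-17) and Kcna1 at 22.0, 83.2, 55.6, 48.0 and 200.3 CPM (2.01 ± 0.29, adjusted p = 8.17e-09), a spread of the libraries that reaches down to the gates' 24.5 CPM. Kcna2 was at 87.2 ± 53.4 CPM (1.82). In astrocytes Kcnn2 was at 534 ± 166 CPM (1.89 ± 0.13, adjusted p = 2.16e-22) and Kcnk2 at 168 ± 57.0 (1.61). In OPC, which are known to carry voltage-gated currents, Kcnh8 and Kcnip1 rose beside the Kir genes. Kcnh8 was at 571, 416, 338, 378 and 343 CPM, far above the gates' 36.2 ± 9.76 (4.06 ± 0.25, adjusted p = 4.54e-24). Kcnip1 was at 673 ± 258 CPM (2.50 ± 0.17, adjusted p = 1.14e-21) and Kcnd2 at 5045 ± 598 CPM (0.81). Kcna4 had 1 UMI in OPC, 14.1-fold lower (2.53 to 557, exact Poisson interval of the count).

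Of the 12 partners tested, 8 were lower in astrocytes and 1, Lgi1, was higher. In oligodendrocytes Cntn2, an adhesion protein of myelinated axons, Ank3 and Dlg1 were higher and 8 were lower. All 12 were lower in microglia, and 8 were lower in OPC.

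Fasted and fed libraries were compared within each of 13 classes that had at least 10 nuclei in every library. Of 555 tests of members 1 was called, Kcnt1 in astrocytes. Over these classes 0.0604% of all gene tests were called. By class the share of all genes called was 0% in the Calcrl and Nkx2-1 gates and in oligodendrocytes, 0.0247% in Dnah5, 0.013% in Foxp2, 0.13% in Pde1c, 0.0112% in Prkcd, 0.0316% in Rarb, 0.195% in Sst, 0.0074% in all inhibitory nuclei, 0.0082% in the ungated inhibitory nuclei, 0.407% in astrocytes and 0.228% in OPC. At an unadjusted p under 0.05 there were 46 of the 555 member tests, among them 6 of 71 in all inhibitory nuclei (8.45%, all genes 5.27%), 7 of 46 in Prkcd (15.2%, all genes 6.11%), 6 of 46 in Calcrl (13.04%, all genes 6.18%) and 6 of 47 in Sst (12.8%, all genes 6.22%). In the ungated nuclei there was 1 of 66 (1.52%, all genes 5.01%). Foxp2 had 1 of 44 (2.27%, all genes 3.39%) and Pde1c 1 of 29 (3.45%, all genes 3.07%). Nkx2-1 had 2 of 45 (4.44%, all genes 2.79%) and Dnah5 4 of 47 (8.51%, all genes 6.01%). Rarb had 4 of 55 (7.27%, all genes 4.17%) and OPC 4 of 23 (17.4%, all genes 6.12%). Astrocytes had 3 of 27 (11.1%, all genes 5.99%) and oligodendrocytes 1 of 9 (11.1%, all genes 7.93%). All inhibitory nuclei contain the gates, so these tests are not independent. DESeq2 called 1 member test over these classes, and the likelihood ratio test 2. Over all genes DESeq2 called 81 higher and 3 lower in all inhibitory nuclei and 30 higher and 1 lower in the ungated nuclei, against 1 higher in each by edgeR. With 3 fed and 2 fasted libraries, a member that was not called is not shown to be unaffected.

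Kcnt1 encodes Slack, a channel opened by the sodium that enters an active cell (chromosome 2, 25753746 to 25809578). In astrocytes it was at 169.8, 163 and 138 CPM in the fed replicates 1, 2 and 3, on 25, 64 and 44 UMIs, and at 436 and 481 CPM in fasted replicates 1 and 2, on 102 and 293 UMIs. The feeding states did not overlap, and the fasted mean was 459 ± 32.1 CPM against 157 ± 16.8 (log2 difference 1.57 ± 0.24, adjusted p = 0.0349, edgeR quasi-likelihood test). The levels of the fasted astrocytes were above those of the inhibitory nuclei of the same libraries, which were 172 and 130.5 CPM, and above the 0 and 5.14 CPM of their oligodendrocytes. In astrocytes the summed level of the 6 oligodendrocyte markers was 312 and 407 CPM in fasted and 119 to 177 in fed replicates, and the mitochondrial share was 0.486% and 0.436% against 0.202% to 0.368%. The 2 neuronal markers summed to 47.0 and 98.6 CPM in fasted and 34.0 to 78.3 in fed replicates. The part of oligodendrocyte RNA and of RNA quality in the difference was not tested. The call did not hold without fed replicate 1 (adjusted p = 0.215), fed replicate 2 (0.197) or fasted replicate 2 (0.712), with log2 differences of 1.62, 1.67 and 1.51, nor with nuclei of at least 1500 genes (0.107). It held without fed replicate 3 (1.46, adjusted p = 0.00553).

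**Figure D5:**
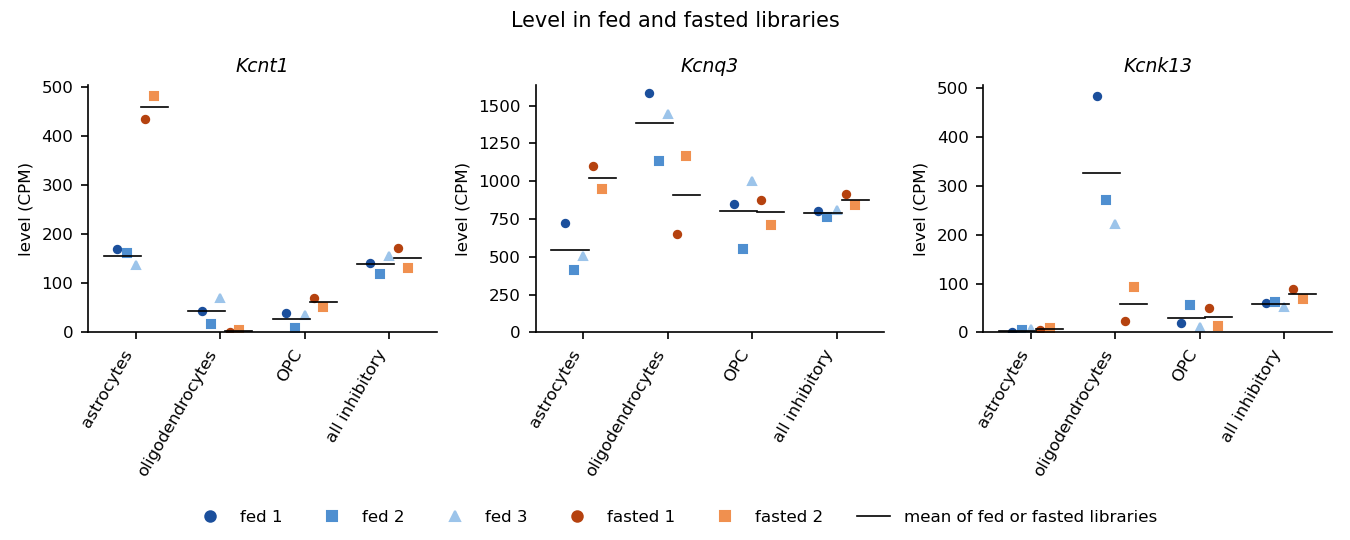
Level (CPM) of Kcnt1, Kcnq3 and Kcnk13 in the glial classes tested and in all inhibitory nuclei, by library. Points are libraries, lines the mean of the 3 fed and of the 2 fasted libraries. The fasted libraries lie above the fed ones for Kcnt1 and Kcnq3 in astrocytes and below them for Kcnk13 in oligodendrocytes.

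In all inhibitory nuclei, the member with the smallest p was Kcnh8. It was at 38.2, 33.6 and 29.1 CPM in fed and 51.0 and 50.2 in fasted replicates, without overlap (0.58 ± 0.14, adjusted p = 0.374). In the ungated nuclei it was at 63.4, 53.5 and 43.8 against 80.5 and 81.7 CPM (0.59 ± 0.17, adjusted p = 0.475). Kcnq5 in the Prkcd gate was at 2730, 2830 and 2349 CPM in fed and 1891 and 2140 in fasted replicates (-0.42 ± 0.15, adjusted p = 0.644). In Rarb it was Kcnn2, at 135, 104 and 103 against 162 and 165 CPM (0.54 ± 0.18, adjusted p = 0.882). Two-pore genes had the smallest p in 4 further gates, namely Kcnk9 in Calcrl (-1.05, adjusted p = 0.518) and in Sst (1.59, adjusted p = 0.322), Kcnk10 in Foxp2 (-0.71, adjusted p = 1.00) and Kcnk1 in Pde1c (1.63, adjusted p = 1.00). In Dnah5 it was Kcnj4 (1.36, adjusted p = 0.605), in Nkx2-1 Kcnq1 (1.58, adjusted p = 0.844) and in OPC Kcnh7 (1.07, adjusted p = 0.213). None of these passed the test.

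A legend of the study says that its fed and fasted datasets numbered 1 were prepared together, as were those numbered 2. These numbers were assumed to be the replicate numbers of the labels, and the fits were repeated with the replicate number as a block. Fed replicate 3 was alone in its block, so the blocked differences rest on replicates 1 and 2 of both feeding states. The block left 1 residual degree of freedom in each class in place of 3. The p-values with the block therefore rest mainly on a spread estimated over all genes, not on that of the member itself. With the block 14 of the 555 member tests were called, 10 higher and 4 lower in fasted, and 1.55% of all gene tests. They included Kcnt1 in astrocytes (1.47, adjusted p = 1.65e-06), Kcnq3 in astrocytes (0.90, adjusted p = 0.00309), Kcnk13 in oligodendrocytes (-2.06, adjusted p = 0.000637), Kcnh8 in all inhibitory nuclei (0.48, adjusted p = 0.000419) and in the ungated nuclei (0.46, adjusted p = 0.00385), Kcnq5 in Prkcd (-0.50, adjusted p = 0.0495) and Kcnk9 in Sst (2.26, adjusted p = 0.0251). The largest difference called was that of Kcnh8 in Prkcd (6.89 ± 1.37, adjusted p = 0.000288). Without the block no member was called in Prkcd. The mean level of Kcnh8 was only 40.4 CPM in all inhibitory nuclei, and Kcnh8 was lower in the Prkcd gate than in the other gates. Its counts in this gate by library are not given here, so the size of this difference is not to be relied on. Kcnj10 in all inhibitory nuclei was also called with the block (1.71, adjusted p = 0.0330), at a mean level of only 1.11 CPM.

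Whether fasting acted differently in one class was tested in 11 classes. The contrast was the fasting effect of a class minus the mean effect of the other inhibitory gates. The spread was estimated over the sums of all 11 classes together, so these p-values rest on more than the libraries of the glial class. The share of all 10556 genes called was 0.493% in astrocytes, 0.152% in oligodendrocytes, 0.0189% in OPC and in Dnah5, and 0% in Calcrl, Foxp2, Nkx2-1, Pde1c, Prkcd, Rarb and Sst. Of the members 3 were called. The effect on Kcnt1 in astrocytes was larger than in the gates by 1.503 ± 0.218 on the log2 scale (adjusted p = 1.82e-05), a call that did not hold without fasted replicate 2 (1.23, adjusted p = 0.0871). Kcnq3, an M-current subunit, was at 727, 414 and 504 CPM in fed and 1098 and 946 in fasted astrocytes, which do not overlap. Its effect there was larger than in the gates by 0.91 ± 0.23 (adjusted p = 0.0455), and this call was lost without any one of the 5 libraries (adjusted p from 0.0839 to 0.351). Within astrocytes alone the Kcnq3 difference was 0.93 ± 0.25 (adjusted p = 0.183).

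Kcnk13 in oligodendrocytes was the member with the opposite direction. It was at 483, 272 and 223 CPM in fed replicates 1, 2 and 3, on 22, 49 and 16 UMIs, and at 24.0 and 92.4 CPM in fasted replicates 1 and 2, on 1 and 18 UMIs. The groups did not overlap, with 17 to 54 oligodendrocytes per library. Its effect differed from that of the gates by -2.35 ± 0.53 (adjusted p = 0.0257), and within oligodendrocytes the difference was -2.02 ± 0.52 (adjusted p = 0.170). The summed level of the 6 oligodendrocyte markers was 23271 and 21883 CPM in fasted and 15190 to 24155 in fed replicates, so that their ranges overlapped. The mitochondrial share of these nuclei was 0.521% and 0.404% in fasted and 0.191% to 0.296% in fed replicates, without overlap, and its part in the difference was not tested. The difference between classes was no longer called without fed replicate 1 (-2.07, adjusted p = 0.0574), fasted replicate 1 (-1.99, 0.233) or fasted replicate 2 (-4.16, 0.547). The other classes had no called member in this test. Their smallest p belonged to Kcnk9 in Calcrl (-1.34), Dnah5 (-1.26), Rarb (1.17) and Sst (1.63), Kcnh5 in Foxp2 (-0.80), Kcnq1 in Nkx2-1 (1.32), Kcnh7 in OPC (1.19) and Kcnq3 in Pde1c (-0.43), with adjusted p from 0.529 to 1. In Prkcd it was Kcng1, which had 13 UMIs in all. Of the partners, 0 of 165 tests between fed and fasted and 0 of 154 between classes were called by edgeR and also by DESeq2, with 1 and 4 at an unadjusted p under 0.05.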

How the data were processed

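The authors deposited raw UMI counts per gene and barcode, called by Cell Ranger 5.0.0 per the file headers. Their methods align to GRCm39 with Cre and mCherry added and count introns. The submitters' processing notes name Cell Ranger 2.1.1 and mm10 instead. The counts were used as deposited. Nuclei were gated on raw marker UMIs, and UMIs were summed per class and library where at least 10 nuclei were present (41640 UMIs or more per tested sum). Sums were tested with edgeR 4.0.16 (quasi-likelihood, TMM, filterByExpr) in R 4.3.3, with Benjamini-Hochberg adjustment over all genes tested and a threshold of 0.05. SE is the log2 difference divided by the root of F. Differences between classes used the library as a block. The fasting fits had none. The alternatives were DESeq2 1.42.0, the likelihood ratio test, RLE factors, no filter, stricter gates (UMI minimum times 1.5), nuclei thinned to 4000 UMIs, at least 1500 genes per nucleus, the ungated nuclei as an added gate, the replicate block and leaving out each library. The fits were run on simulated sums drawn independently with a single fixed spread. The simulation held no effect of library or preparation, so it cannot show how the fits behave with such effects.

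Named members were, per class, up to 3 called rises and 1 fall of at least 1 on the log2 scale with 20 CPM or more and the same direction in every library; called members and the smallest p in each fasting test; the highest 10 by CPM and 5 per kb; and a list of 30. The same direction of every library in a named class difference is therefore part of the rule, not a further result. Other called members of the same families were named after their values were seen. The members, lists and tests were chosen with earlier results of these data known. Sequences and spans come from GENCODE M39 on GRCm39, in which all 94 members matched. Results of some members and some sequences are not reported here. Replicate numbers were assumed to pair libraries as the preparation batches in a legend of the study do, fed replicate 3 having its own by elimination. The legend uses the study's own dataset numbers, and the match to the labels was not tested. Deviations of same-numbered libraries from their feeding state's mean correlated across genes at 0.386 and 0.592 in inhibitory nuclei and at 0.0750 and -0.0154 in astrocytes. With 2 fasted libraries their deviations mirror each other, so the values of a pair are not independent. Median UMIs were 8326 (fed) and 6608 (fasted) in replicates 1, and 14886 and 16367 in replicates 2. The part of this depth in the correlations was not tested. P-values of the fasting fits measure the spread between libraries of pooled mice, in part as estimated over all genes. Those of fits with the library as a block measure the spread left after that block. Intervals cover counting error only.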

Additional observations from a re-analysis of the deposited data

Results flagged for a closer look

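The fasting effect of 3 members differed between a glial class and the inhibitory gates by the test of the difference itself. For Kcnt1 in astrocytes the difference of the effects was 1.503 on the log2 scale (edgeR, adjusted p = 1.82e-05). For Kcnq3 in astrocytes it was 0.91 (adjusted p = 0.0455). For Kcnk13 in oligodendrocytes it was -2.35 (adjusted p = 0.0257). These are 3 of 638 such tests of members. In astrocytes 3.45% of the members tested were called (all genes 0.493%), and in oligodendrocytes 1.72% (all genes 0.152%). Their spread was estimated over 11 classes together. Within the glial class alone, only Kcnt1 was called. None of the 3 calls held under every omission of a single library.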

How the results depend on the processing

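The 48 named differences between classes kept their direction under every alternative that gave a value, and 2 of 539 such values passed the threshold no longer (Kcnh8 in Calcrl and in Foxp2, thinned nuclei). The rule for naming already required a call and the same direction in every library, so this result is partly built in. Thinned nuclei gave a value for only some of the 48, of which 16 kept the call. Member calls between the gates numbered 224, and 165 to 216 without 1 library. Thinning to 4000 UMIs left 7 gates and 92 calls, 2 glial classes with 44 calls in place of 168, 6 fasting fits with 0 calls and 4 classes with 0 calls in the test between classes. The fewer classes and genes tested are part of that setting. Glial calls were 153 to 167 without 1 library. Apart from the replicate block, the share of all genes called under each alternative is not given here. A change in these numbers is therefore not read as a change of the members alone.

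Member calls between fasted and fed numbered 1, and became 3 with no filter on low counts, 2 with the likelihood ratio test, 0 with at least 1500 genes and 0 to 3 without 1 library. With the replicate block, which pairs the libraries by their assumed preparation and leaves fed replicate 3 without a pair, they were 14. Of all gene tests 1.55% were called with the block and 0.0604% without it. The block changed the calls of 5 of the 13 named fasting differences and turned none. Calls in the test between classes numbered 3, and 0 to 3 without 1 library. With stricter gates 1 of the named differences in this test no longer passed the threshold. Kcng1 in Prkcd turned from -4.05 to 3.69 in that setting, on 13 UMIs in the gates as reported. The causes were not tested. The smallest sum tested was that of oligodendrocytes of fasted replicate 1, with 41640 UMIs in 17 nuclei.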
